A study of Mus musculus with 59 samples.

Results

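The Cyp1 family comprises Cyp1a1, Cyp1a2 and Cyp1b1, and these 3 genes, of 20018 genes with a symbol on the array, were followed in lung, liver and forestomach of mice given benzo(b)fluoranthene (BbF). All probes whose accession maps to one of the 3 symbols were taken, which gave 1 probe each: Cyp1a1 (NM_009992), Cyp1a2 (NM_009993) and Cyp1b1 (NM_009994). Adult male Muta™Mouse, a transgenic strain made for mutation assays, aged about 16 weeks and housed singly, were gavaged daily for 28 days with olive oil alone (vehicle, dose 0) or with BbF in olive oil at 25 (low), 50 (medium) or 100 (high) mg/kg-bw/day. Tissues were taken 72 hours after the final dose. The submitters' labels are not uniform on the compound: sample titles and treatment protocol give BbF, whereas benz(a)anthracene stands in the exposure label and the series design. It is called BbF here. Mice 1 to 5 were vehicle, 6 to 10 low, 11 to 15 medium and 16 to 20 high, and a number is the same animal in every tissue. Each animal gave 1 array per tissue except low-dose mouse 7, which has no lung array here, so 59 arrays fall into 12 groups of 5, or 4 in low-dose lung.

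Cyp1 enzymes oxidize polycyclic aromatic hydrocarbons such as BbF, both to reactive diol epoxides that bind DNA and to products that are cleared. Their genes are classical targets of the aryl hydrocarbon receptor (AhR), a ligand-activated transcription factor that pairs with Arnt and binds DNA at sites with the core GCGTG. Cyp1a1 is scarce in unexposed tissue and is the customary marker of AhR activity, Cyp1a2 is made constitutively in hepatocytes, and Cyp1b1 is found mostly outside the liver.

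The promoters are shown because the 3 genes are read together as AhR targets. Each is the 250 bases before the RefSeq start of the gene (build GRCm38.p6, another build than the one the array files name), 5′ to 3′ on the gene's strand. Capitals mark GCGTG or its reverse complement CACGC, and TATAAA, which was searched on the gene's strand. Cyp1a1 lies at chr9:57697363-57697612 on the plus strand, Cyp1a2 at chr9:57683656-57683905 on the minus strand and Cyp1b1 at chr17:79715062-79715311 on the minus strand.
Cyp1a1: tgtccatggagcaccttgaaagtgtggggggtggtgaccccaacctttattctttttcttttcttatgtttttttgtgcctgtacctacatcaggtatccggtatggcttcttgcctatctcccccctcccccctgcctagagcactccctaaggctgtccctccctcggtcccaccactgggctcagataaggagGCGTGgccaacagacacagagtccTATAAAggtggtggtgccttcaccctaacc
Cyp1a2: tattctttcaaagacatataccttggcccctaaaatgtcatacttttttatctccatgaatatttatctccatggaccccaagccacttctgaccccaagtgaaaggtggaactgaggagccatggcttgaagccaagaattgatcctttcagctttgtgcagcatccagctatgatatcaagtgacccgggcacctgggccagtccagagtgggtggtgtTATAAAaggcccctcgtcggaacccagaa
Cyp1b1: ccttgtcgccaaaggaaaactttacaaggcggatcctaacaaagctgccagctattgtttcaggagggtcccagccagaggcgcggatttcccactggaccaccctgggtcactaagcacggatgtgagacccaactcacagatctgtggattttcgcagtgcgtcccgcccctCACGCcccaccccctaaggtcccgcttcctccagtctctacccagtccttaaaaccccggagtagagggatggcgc
The GCGTG core began 54 bases before the start of Cyp1a1 and, on the other strand, 76 bases before that of Cyp1b1. No match lies in this window of Cyp1a2. TATAAA began 30 bases before the start of Cyp1a1 and 29 before that of Cyp1a2. Of 32851 promoters cut to the same 250 bases, 28.2% hold GCGTG on either strand and 7.59% hold TATAAA.

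Each value below is the log2 ratio of the tissue RNA (Cy5) to a universal reference RNA from 11 mouse cell lines (Cy3) on the same array, loess-normalized, and a call is an adjusted p of 0.05 or less in limma's moderated test over all probes with a change of 1.5-fold or more. The RNA came from random sections of whole tissue, in which fewer cells of a type and less RNA per cell cannot be told apart. The lung markers Sftpc and Scgb1a1, which encode surfactant protein C and the club cell secretory protein, were at 6.84 or more on every lung array. The liver markers Alb and Apoa2 were at 3.84 or more on the liver arrays with a value (19 of 20 for each), and the squamous keratins Krt13 and Krt4 at 4.76 or more on every forestomach array. Scgb1a1 also reached 4.30 to 5.46 in forestomach. The lung array of low-dose mouse 6 held Krt13 at 4.17 and Krt4 at 5.73, against at most -0.90 and 0.36 on the other lung arrays, and the forestomach array of medium-dose mouse 12 held Alb at 4.79 and Apoa2 at 3.18, against at most 4.30 and 2.01 on the other forestomach arrays. On the third liver slide, which carried vehicle mouse 5, low-dose mice 6 and 10, medium-dose mice 11 and 15 and high-dose mice 18, 19 and 20, only 10.7% to 12.9% of probes were well above background in Cy5, against 37.1% to 46.2% on the other liver arrays. Dose also followed the position on the slide, since all 15 vehicle arrays lay in the first column and 14 of 15 high-dose arrays in the fourth, so that dose and position cannot be told apart.

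The reference channel limits what the ratios can show. The Cy3 signal of Cyp1a1 was 33 to 80 scanner units in every tissue and was well above background on 4 of 19 lung, 2 of 20 liver and 1 of 20 forestomach arrays, so its ratio rests on the Cy5 signal. In Cy5, Cyp1a1 was well above background on all 19 lung, 5 of 20 liver and 18 of 20 forestomach arrays. Cyp1b1 was measured in Cy5 on every lung and forestomach array but on 2 of 20 liver arrays. Cyp1a2 was measured on all 20 liver arrays, on 1 of 20 forestomach arrays and on no lung array. None of the 3 probes was saturated on any array.

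The first question was whether each dose changed the Cyp1 genes in lung. Cyp1a1, the enzyme taken as the marker of AhR activity, was at 2.97, 8.39, 2.06, 2.81 and 2.64 in vehicle mice 1 to 5. In high-dose mice 16 to 20 it was at 7.54, 8.94, 5.99, 9.36 and 9.38. Vehicle mice 1, 3, 4 and 5 therefore lay well below all high-dose mice, while vehicle mouse 2 lay above mice 16 and 18. Cyp1a1 rose by 4.47 ± 1.13 on the log2 scale (SE), or 22.1-fold, at the high dose (limma, adjusted p 0.0202), from 3.77 ± 2.60 to 8.24 ± 1.47 (SD, n = 5 each). The exact 2-sided permutation test of the 5 against 5 mice gave p = 0.0238, with 0.00794 the smallest it can give. Of all 55681 probes, 1.45% were called in this comparison. Within the slides, high minus vehicle was 2.56, 3.55 and 6.73. Without vehicle mouse 2 the change was 5.62 with an adjusted p of 0.00133. The call was lost, with adjusted p of at most 0.0580, when any of mice 1, 3, 17, 19 or 20 was left out, and with a trended and robust prior (adjusted p 0.0626).

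**Figure D1:**
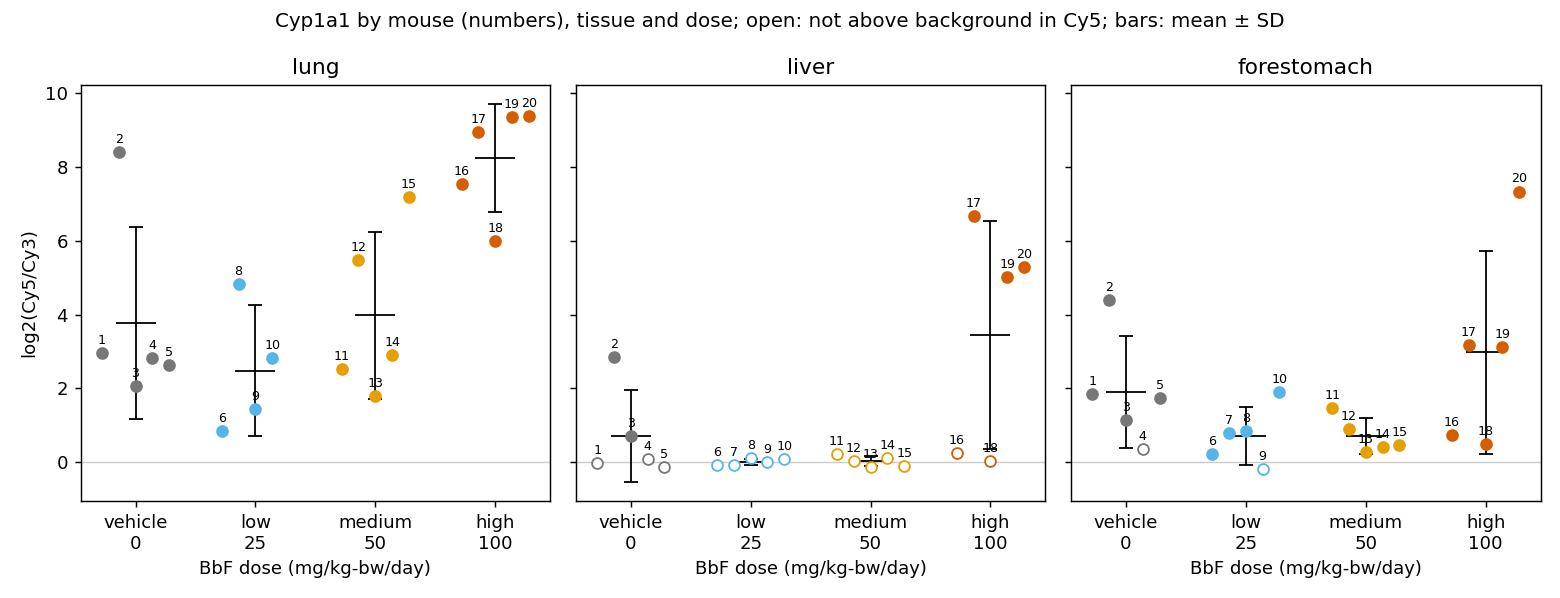
Log2(Cy5/Cy3) of Cyp1a1 in each mouse (numbered points) by dose in mg/kg-bw/day, with the group mean and SD as bars and open points where Cy5 was not well above background. Among vehicle mice, mouse 2 is the top point of every panel (8.39 in lung, 2.84 in liver, 4.39 in forestomach), and high-dose mice 17, 19 and 20 lie above mice 16 and 18.

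At the lower doses Cyp1a1 in lung differed widely between mice of one group. The low-dose values were 0.84, 4.82, 1.44 and 2.83 in mice 6, 8, 9 and 10, and the medium-dose values 2.54, 5.47, 1.80, 2.89 and 7.18 in mice 11 to 15. Mice 8, 12 and 15 thus exceeded vehicle mice 1, 3, 4 and 5, mice 10, 11 and 14 lay within their range of 2.06 to 2.97, and mice 6, 9 and 13 lay below it. The changes from vehicle were -1.29 ± 1.20 (SE, adjusted p 0.849) at the low and 0.20 ± 1.13 (adjusted p 0.968) at the medium dose, where 0.345% and 0.469% of all probes were called. The mouse with forestomach keratins, mouse 6, had the lowest lung value, and without it the low-dose change was -0.74 ± 1.29 (adjusted p 0.962). Whether that tissue entered the value was not tested. Over the doses, the slope of Cyp1a1 corresponded to a rise of 4.97 ± 1.21 (SE) from vehicle to 100 mg/kg-bw/day (limma, adjusted p 0.0153), a test in which 1.23% of probes were called and which Cyp1a1 no longer passed without mouse 20.

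Cyp1b1, which is expressed mainly outside the liver, showed the more regular dose order in lung. Vehicle mice 1 to 5 were at -1.39, 0.21, -1.53, -1.28 and -1.60. The low-dose mice lay between -1.04 and -0.25 with a median of -0.47, and the medium-dose mice between -0.40 and 0.64 with a median of 0.03. Setting mouse 2 aside, every low-dose mouse lay above all vehicle mice, and the low- and medium-dose ranges overlapped. At the high dose, mice 16 to 20 were at 1.03, 4.95, 0.67, 4.96 and 5.01, all above every vehicle, low- and medium-dose mouse.

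In high-dose lung Cyp1b1 rose by 4.44 ± 0.68 (log2, SE), or 21.8-fold (limma, adjusted p 0.000412), with means of -1.12 ± 0.75 and 3.32 ± 2.26 (SD, n = 5 each). The exact 2-sided permutation test of these mice gave p = 0.00794, the smallest that 5 against 5 can give. It was called with every normalization and prior tried and with each of the 10 mice left out, and within the slides high minus vehicle was 3.58, 2.08 and 6.59. The low-dose change of 0.56 ± 0.72 (adjusted p 0.906) and the medium-dose change of 1.21 ± 0.68 (adjusted p 0.457) did not pass the test. All dose comparisons share the same vehicle arrays, that of mouse 2 included. The slope over dose corresponded to a rise of 4.51 ± 0.67 (SE, limma, adjusted p 0.00026) from vehicle to the high dose. Cyp1a1 and Cyp1b1 were thus the 2 of 3 members called at the high dose and by the trend in lung, and 0 of 3 were called at the low and medium doses.

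**Figure D2:**
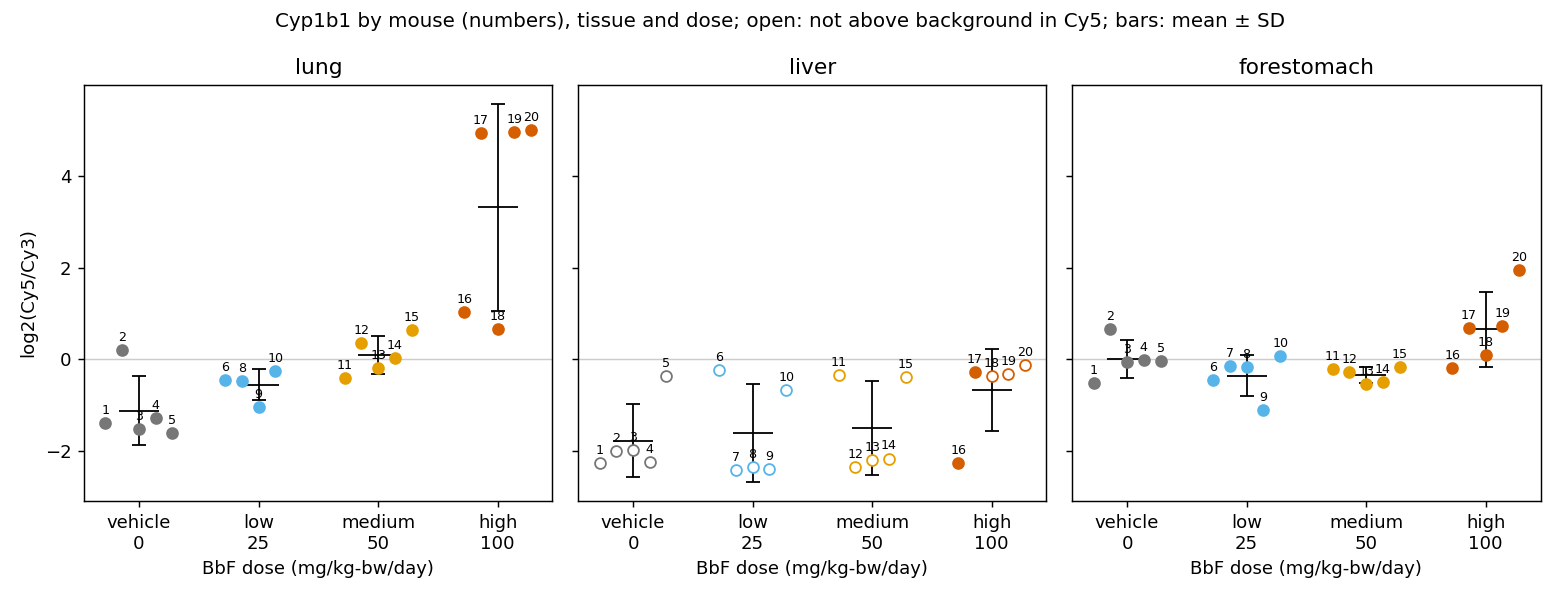
Log2(Cy5/Cy3) of Cyp1b1 in each mouse (numbered points) by dose in mg/kg-bw/day, with the group mean and SD as bars and open points where Cy5 was not well above background. In lung the high-dose mice fall at 0.67 and 1.03 (mice 18 and 16) and at 4.95 to 5.01 (mice 17, 19 and 20), and in liver the third slide (mice 5, 6, 10, 11, 15, 18, 19 and 20) sits near -0.3 where most other mice sit near -2.2.

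The spread of both genes at the high dose was large beside that of other probes. Among the 31328 probes measured on at least 1 high-dose lung array, 99.97% had a smaller SD than Cyp1b1 (2.26) and 99.89% a smaller SD than Cyp1a1 (1.47). In vehicle lung the SD of Cyp1a1, 2.60, was the second largest of 29394 probes, and without mouse 2 it was 0.40. In high-dose liver the SD of Cyp1a1, 3.10, was the largest of 26500 probes. There mice 16 and 17 were on the first slide and 18 to 20 on the third, so the SD includes any shift between slides. With median centring mice 16 to 20 were at 0.41, 5.57, 0.39, 2.23 and 2.38. These ranks describe the arrays and were not tested.

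In liver, Cyp1a1 was near background on most arrays. The vehicle livers were at -0.01, 2.84, 0.72, 0.09 and -0.14 in mice 1 to 5, with Cy5 well above background in mice 2 and 3. All 10 low- and medium-dose livers were below background, between -0.13 and 0.21. At the high dose, mice 16 to 20 were at 0.24, 6.68, 0.03, 5.03 and 5.29, so that mice 17, 19 and 20 exceeded every vehicle mouse while 16 and 18 were not well above background. The high-dose change of 2.75 ± 0.99 (SE, limma, adjusted p 0.555) did not pass the test, nor did the exact permutation test of 5 against 5 mice (p = 0.103), and 0.00359% of all probes were called. High minus vehicle was 2.04 within the first slide and 3.59 within the third. The second slide held no high-dose array. With median centring the change was 1.33. Mice 17, 19 and 20 were then at 5.57, 2.23 and 2.38 and vehicle mouse 2 at 2.23. Only mouse 17 stood well above mouse 2 by that centring, and mouse 19 did not exceed it.

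In forestomach, the tissue that the gavaged compound met first, Cyp1a1 was at 1.85, 4.39, 1.15, 0.36 and 1.73 in vehicle mice 1 to 5. The low-dose mice ranged from -0.19 to 1.90 (median 0.79) and the medium-dose mice from 0.29 to 1.48 (median 0.47), within or below the vehicle range. At the high dose, mice 16 to 20 were at 0.74, 3.18, 0.49, 3.13 and 7.33. Mouse 20 alone exceeded vehicle mouse 2, and 17 and 19 exceeded the other vehicle mice. The high-dose change was 1.08 ± 0.94 (SE, limma, adjusted p 0.810), the exact permutation test of 5 against 5 gave p = 0.484, and 0.0700% of all probes were called. Within the slides it was -1.16, 6.18 and 0.77, and without mouse 20 it was -0.01.

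Cyp1b1 in forestomach was at -0.52, 0.66, -0.06, -0.02 and -0.03 in vehicle mice 1 to 5 and at -0.18, 0.68, 0.10, 0.73 and 1.96 in high-dose mice 16 to 20. Mice 17, 19 and 20 lay above all vehicle mice, the first of them by little, and mice 16 and 18 within the vehicle range. The low- and medium-dose mice ranged from -1.10 to 0.06 and from -0.54 to -0.18. The high-dose change was 0.65 ± 0.30 (SE, limma, adjusted p 0.559), and the exact permutation test of 5 against 5 gave p = 0.143. Within the slides it was 0.18, 2.02 and 0.44, and without mouse 20 it was 0.33.

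Cyp1b1 in liver gave little to measure. Its Cy5 signal was well above background only in high-dose mice 16 (109 scanner units) and 17 (387), against 58.5 to 98 on the 18 other liver arrays. On the first and second slides the ratio was -2.41 to -1.99, apart from mouse 17 at -0.27, and on the third it was -0.66 to -0.13. The fitted high-dose change of 1.10 ± 0.57 (SE, limma, adjusted p 0.682) sets such values against vehicle livers that were all below background, and 3 of 5 high-dose but 1 of 5 vehicle livers were on the third slide. With the slide as a block the change was 0.42 (adjusted p 0.546), and with median centring it was -0.06.

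No Cyp1 gene was called in liver or forestomach at the low or medium dose, where limma called 0 of 55681 probes (0%) in each of the 4 comparisons, with 1897 and 2523 probes in liver and 2574 and 3161 in forestomach at an unadjusted p under 0.05. The trend over dose called 0 of the 3 members in either tissue, against 0.00898% of all probes in liver and 0.0611% in forestomach. The slopes corresponded to 2.99 ± 1.04 (SE, limma, adjusted p 0.463) for Cyp1a1 and 1.11 ± 0.52 (adjusted p 0.595) for Cyp1b1 in liver, and to 1.38 ± 0.97 (adjusted p 0.756) and 0.75 ± 0.33 (adjusted p 0.519) in forestomach.

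Cyp1a2, the constitutive hepatic member, was well above background in liver at every dose. Its ratio was 4.63 to 5.28 on all 12 arrays of the first 2 liver slides, whatever the dose, and 2.54 to 3.98 on the 8 arrays of the third. With median centring the ratios on the third slide were -2.506 to -1.645, so their sign there rests on the loess normalization. By the ratio, Cyp1a2 was 4.63 ± 1.03 in vehicle mice, and 4.07 ± 1.19, 4.18 ± 1.22 and 4.09 ± 0.94 in low-, medium- and high-dose mice (SD, n = 5 each). The high-dose change was -0.54 ± 0.66 (SE, limma, adjusted p 0.773), and with the slide as a block it turned to 0.26 (adjusted p 0.589). Median centring gave -2.48. On the first slide high minus vehicle was -0.12 and on the third 0.65.

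The Cy5 signal of Cyp1a2 did not follow its ratio on the first slide, but did so in part on the third. On the first slide it was 8961 and 12595 scanner units in vehicle mice 1 and 2, 8629 in low-dose mouse 7, 10133 in medium-dose mouse 12, and 13550 and 33488.5 in high-dose mice 16 and 17. On the third slide it was 210 to 271 in the 5 vehicle, low- and medium-dose mice. High-dose mice 18, 19 and 20 had 282, 593 and 895 units there. The ratio on that slide was highest in mice 19 and 20 as well (3.37 and 3.98). Relative to the median of the slide's mice at the other doses, the Cy5 signal was 3.51-fold in mouse 17, 2.43-fold in mouse 19 and 3.67-fold in mouse 20. In mice 16 and 18 it was 1.42- and 1.16-fold. The same 3 animals that had the highest Cyp1a1 in liver therefore had the highest Cyp1a2 signal on their slides. Normalized between liver arrays, the Cy5 channel alone gave a high-dose change of 0.98 (limma, adjusted p 0.571), and 1.13 (adjusted p 0.290) with the slide as a block. Neither passed the test. The direction was opposite to that of the ratio without the block and the same as that of the ratio with it.

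The Cy3 signal of Cyp1a2 moved with Cy5, although one reference RNA was used on every array. It was 33 to 52.5 scanner units and never above background on the lung and forestomach arrays, but 389 to 3559 and always above background in liver. On the first and second slides it was 4.30% to 6.73% of the Cy5 signal of the same spot, with 1440.5 units in mouse 17 against 414.5 to 668 in the other doses' mice of that slide. On the third slide it was 247% to 428% of Cy5, with 2539 and 3559 units in mice 19 and 20 against 569 to 914 at the other doses. A ratio whose denominator rises with its numerator registers less of a change. Cyp1b1 in lung showed a smaller shift of the same kind on the third lung slide, with Cy3 signals of 1921 and 1836.5 in mice 19 and 20 and of 1401 to 1621 in the other mice, and on the first, with 1595 in mouse 17 and 967.5 to 1222 in the others. The source of this Cy3 signal was not tested.

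**Figure D3:**
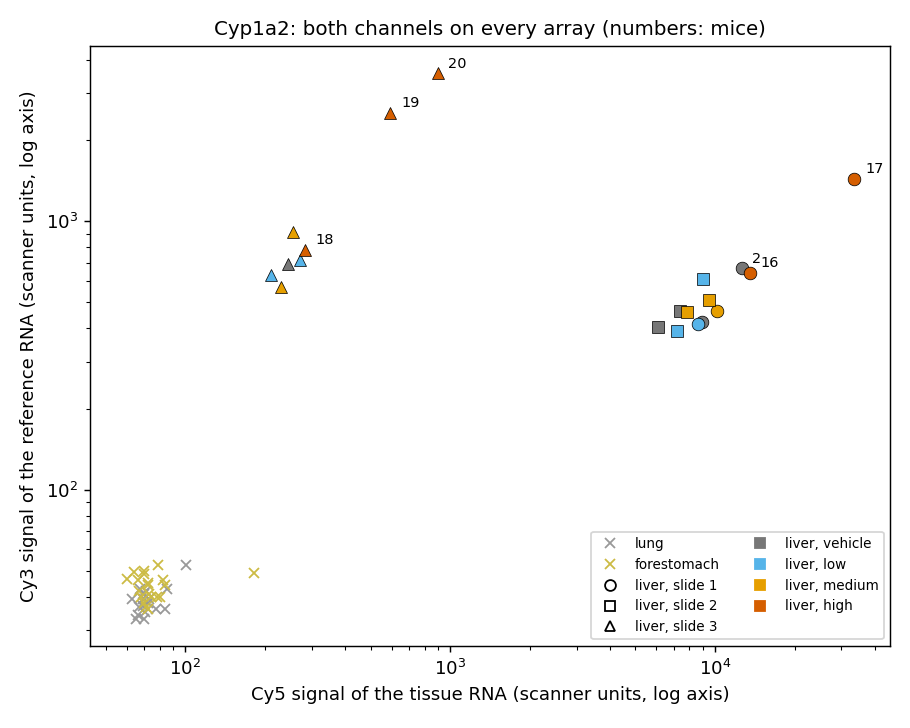
Cy5 signal of the tissue RNA against Cy3 signal of the reference RNA at the Cyp1a2 spot on every array, both on log axes in scanner units, with liver points shaped by slide and coloured by dose and crosses for lung and forestomach. Mice 17, 19 and 20 lie furthest out along both axes on their slides, and liver arrays carry Cy3 signals of 389 to 3559 where the other tissues carry at most 52.5.

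In the other tissues Cyp1a2 was well above background on a single array, the forestomach of medium-dose mouse 12, with a ratio of 2.06 and a Cy5 signal of 181 against 60 to 84 on the other forestomach arrays. On that array the liver transcript Alb had a Cy5 signal of 16447, against 73 to 1510 on the others, and Apoa2 11842, against 360 to 2263.5. The part of these liver transcripts in the Cyp1a2 value was not tested. Without mouse 12 no forestomach array held Cyp1a2 above background, and no fold is given for lung or forestomach at any dose.

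Each animal was then followed across its tissues. Vehicle mouse 2 had the highest Cyp1a1 of the 5 vehicle mice in lung (8.39, the next 2.97), in liver (2.84, the next 0.72) and in forestomach (4.39, the next 1.85). In lung its Cyp1a1 exceeded the mean of the other vehicle mice by 5.77 on the log2 scale, which placed it among the high-dose mice. Its Cyp1b1 was the highest of the vehicle mice in lung (0.21, the next -1.28) and in forestomach (0.66, the next -0.02), but remained below every high-dose lung. In liver, its Cyp1a2 Cy5 signal of 12595 was the highest on the first slide outside the high dose.

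The same high-dose animals stood out in every tissue. Mice 17, 19 and 20 had the 3 highest values of Cyp1a1 in lung, liver and forestomach and of Cyp1b1 in lung and forestomach. Mice 16 and 18 had raised Cyp1a1 in lung (7.54 and 5.99) without a liver signal above background and with forestomach values of 0.74 and 0.49, below the vehicle mean of 1.90. The order within the trio was not shared, since mouse 17 led in liver (6.68) and mouse 20 in forestomach (7.33). The trio was not confined to a slide: in lung and in liver mouse 17 was on the first and mice 19 and 20 on the third, and in forestomach each was on a slide of its own. Mice 8, 12 and 15, whose lung Cyp1a1 stood above that of the other low- and medium-dose mice, had forestomach values of 0.86, 0.90 and 0.47 and liver values below background.

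**Figure D4:**
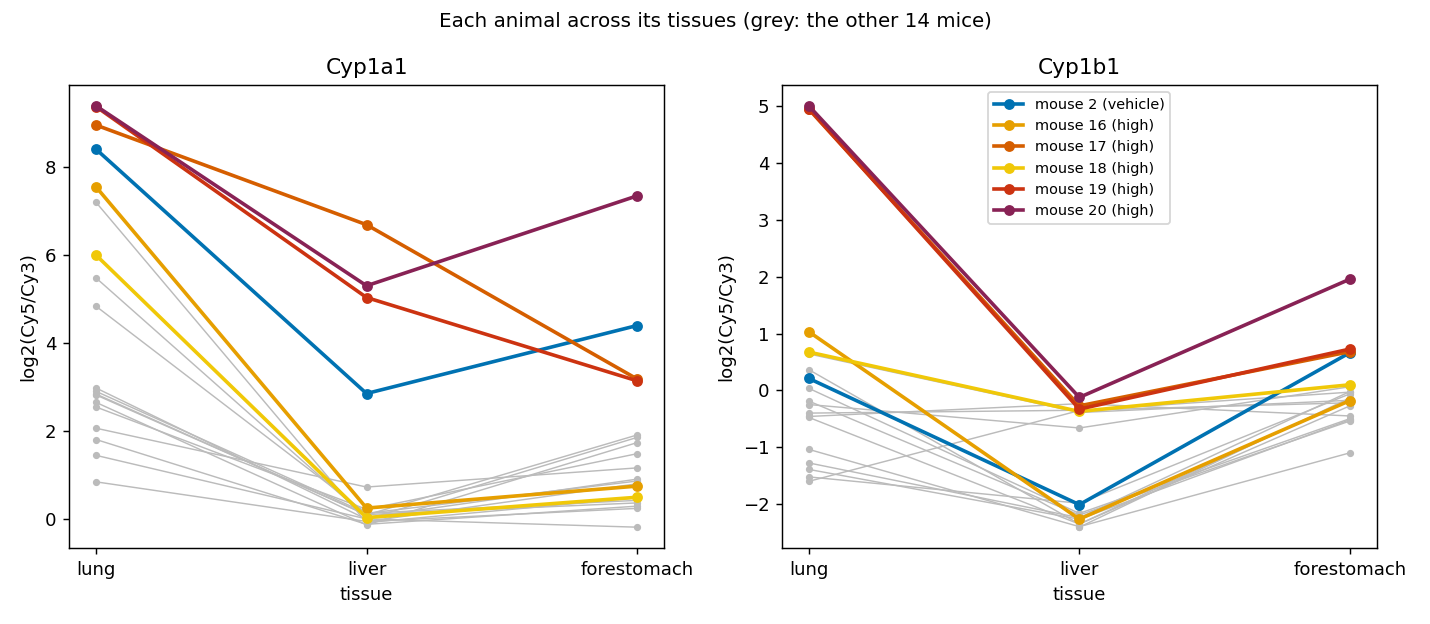
Log2(Cy5/Cy3) of Cyp1a1 and Cyp1b1 in lung, liver and forestomach, with 1 line per animal, coloured for vehicle mouse 2 and high-dose mice 16 to 20 and grey for the other 14 mice. The lines of mice 17, 19 and 20 stay above those of mice 16 and 18 in each tissue for Cyp1a1, and mouse 2 lies at 8.39, 2.84 and 4.39 in lung, liver and forestomach.

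Since the high-dose values fell into separate clusters, no correlation over all animals was tested. Among the vehicle, low- and medium-dose animals, 4 relations between deviations from the dose-group mean could be formed with genes above background, each tested by 100000 permutations of animals within dose groups (2-sided) and adjusted over the 4. Cyp1b1 in lung went with Cyp1b1 in forestomach (14 animals, r = 0.73, adjusted p 0.0210; rho = 0.60, adjusted p 0.0433), and Cyp1a1 in lung with Cyp1b1 in lung (14 animals, r = 0.87, adjusted p 0.0140; rho = 0.71, adjusted p 0.0212). In forestomach, Cyp1a1 went with Cyp1b1 (15 animals, r = 0.71, adjusted p 0.0259; rho = 0.71, adjusted p 0.0212). Cyp1a1 in lung against forestomach had r = 0.62 (14 animals, permutation, adjusted p 0.0558; rho = 0.53, adjusted p 0.0650). Without vehicle mouse 2 the 4 values of r were 0.54, 0.74, 0.51 and 0.19, and none passed (lowest adjusted p 0.135, permutation). Without the 2 mice of largest deviation on the first measure, which included mouse 2 each time, they were 0.55, 0.58, 0.67 and 0.35, and none passed (lowest adjusted p 0.207, permutation). When the 2 mice farthest from the median level were left out instead, r was 0.78, 0.58, 0.26 and 0.35. The first of these, which left out mice 3 and 5 and kept mouse 2, passed by r (permutation, adjusted p 0.0366) but not by rho (0.75, adjusted p 0.0784). No relation passed in a setting without mouse 2. With deviations also taken from the slide, r was 0.78, 0.86, 0.73 and 0.58.

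Whether the high-dose change differed between tissues was tested directly. For Cyp1b1 the rise in lung exceeded the change in forestomach by 3.79 ± 0.80 on the log2 scale (SE, limma, adjusted p 0.00909), a comparison in which 0.763% of all probes were called, and it was called with the animal as a block and with each mouse left out. Differences from liver are listed for Cyp1b1 only with the processing settings and are not read as results, since it was above background in no vehicle liver. For Cyp1a1 the differences were 1.71 ± 1.62 between lung and liver (adjusted p 0.717, with 0.312% of probes called), 3.39 ± 1.57 between lung and forestomach (adjusted p 0.434) and 1.67 ± 1.43 between liver and forestomach (adjusted p 0.757, with 0.0269% called), none of which passed.

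The vehicle levels gave the order of the tissues without BbF, one gene at a time. Cyp1a1 was highest in lung (3.77 ± 2.60), then in forestomach (1.90 ± 1.51) and liver (0.70 ± 1.24; SD, n = 5 each). Lung exceeded liver by 3.07 ± 1.06 (SE, limma, adjusted p 0.0307, with 24.4% of probes called), a call lost without mouse 1 or mouse 4 and with median centring. Since 2 of 5 vehicle livers were above background, the liver side of this difference rests partly on background signal. The neighbours in this order did not differ beyond their spread: lung minus forestomach was 1.88 (adjusted p 0.223, with 19.1% called), and liver minus forestomach -1.19 (adjusted p 0.462, with 20.1% called). With the animal as a block, lung minus forestomach was called (adjusted p 0.0103). Without vehicle mouse 2 the 4 remaining mice gave 2.62 ± 0.40, 1.27 ± 0.68 and 0.17 ± 0.38 (SD), with lung minus liver at 2.45, lung minus forestomach at 1.35 and liver minus forestomach at -1.11, each called, though 1 of these 4 livers was above background.

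Cyp1b1 was higher in vehicle forestomach (0.00 ± 0.42) than in lung (-1.12 ± 0.75; SD, n = 5 each), by 1.12 ± 0.38 (SE, limma, adjusted p 0.0364), a call lost when mouse 1, 3 or 4 was left out. It was not well above background in any vehicle liver, and was at least 3.28-fold higher in forestomach than there, a bound that was not tested. The ratio difference was called (limma, adjusted p 0.00172), but it sets forestomach against livers that were all below background. Cyp1a2 was instead highest in liver, and it was above background in no vehicle lung or forestomach. By the ratio it was 26.1-fold higher in vehicle liver than in lung (limma, adjusted p 1.45e-08) and 22.2-fold higher than in forestomach (adjusted p 3.56e-08), calls lost with median centring. The ratio divides by a Cy3 signal that was itself higher in liver. Bounds were also taken on Cy5 after normalization of both channels, with lung and forestomach set to their dimmest measured probes. By these the level in liver was at least 143-fold and at least 152-fold higher. They hold only after that normalization, since the unnormalized Cy5 signal of vehicle liver was 6069 to 12595 units in mice 1 to 4 but 244 in mouse 5. The bound for Cyp1b1 was taken in the same way. No dyes were swapped, so a dye bias would stay in all these bounds.

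The other genes of the AhR pathway were followed from a list of 12. In lung at the high dose, 3 of 12 rose and 0 fell, where 1.45% of all probes were called. The median change was -0.08 over the list and -0.0038 over all probes. Ahrr, the repressor that competes with AhR for Arnt, rose by 3.14 ± 0.39 (SE, limma, adjusted p 5.64e-05) by the brighter of its 2 probes. The dimmer, above background on 2 of 19 lung arrays, changed by 0.38 (adjusted p 0.0785). The brighter was above background on only 1 vehicle lung array, so the vehicle side of its changes rests partly on background signal. Nqo1, a quinone reductase under AhR and Nrf2, rose by 1.25 ± 0.30 (adjusted p 0.0138). Tiparp, which represses AhR by ADP-ribosylation, rose by 0.71 ± 0.20 (adjusted p 0.0361). Ahr itself changed by -0.31 ± 0.11 (adjusted p 0.125) and its partner Arnt by -0.02 ± 0.09 (adjusted p 0.961). Aldh3a1, Ugt1a6a, Ugt1a6b, Gsta1, Gsta2 and Cyp2s1, enzymes that act on foreign compounds, changed by -0.51 to 0.14 without passing. At the medium dose 1 of 12 passed, Ahrr with 1.52 ± 0.39 (limma, adjusted p 0.0494), where 0.469% of all probes were called. At the low dose 0 of 12 passed, with Ahrr at 1.00 ± 0.42 (limma, adjusted p 0.447), where 0.345% of all probes were called.

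In liver and forestomach 0 of 12 AhR pathway genes passed at any dose. Of all probes, 0% were called at the low and medium doses in both tissues. At the high dose 0.00359% were called in liver and 0.0700% in forestomach. With so few probes called, 0 of 12 does not set the list apart. At the high dose Ahrr changed by 0.25 ± 0.11 in liver (limma, adjusted p 0.614), where it was above background on 2 of 20 arrays, and by 0.44 ± 0.19 in forestomach (adjusted p 0.524). Among the metabolic partners, the microsomal epoxide hydrolase Ephx1, which acts next on the epoxides formed by Cyp1 enzymes, rose in lung by 0.59, 0.66 and 0.98 at the 3 doses (limma, adjusted p 0.00339, 0.000581 and 1.3e-06), while Por and Cyb5a, which pass electrons to cytochromes P450, changed by -0.22 to -0.02 and did not pass. Ephx1 was thus called at the low and medium doses, where no member was.

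The 3 genes of the pathway called at the high dose separated the animals as the members did. In lung, Ahrr was at 1.56, 3.34, 1.12, 3.58 and 3.94 in high-dose mice 16 to 20, Nqo1 at -0.73, 0.50, -1.16, 0.85 and 0.84, and Tiparp at -0.79, 0.46, -0.54, 0.45 and 0.69. Mice 17, 19 and 20 held the 3 highest values of each, as they did for Ugt1a6b. They did not for Ahr, Arnt, Aldh3a1, Ugt1a6a, Gsta1, Gsta2, Cyp2s1, Por or Cyb5a, nor for Ephx1, which lay between 2.29 and 2.53 in all 5 mice. For Tiparp, mice 16 and 18 lay within the vehicle range of -0.85 to -0.48, and for Nqo1 mouse 18 lay within that of -1.47 to -0.84. In vehicle mouse 2, Ahrr was at -0.14 (the other vehicle mice -0.54 to -0.46), Nqo1 at -0.84 (-1.47 to -0.85) and Tiparp at -0.66 (-0.85 to -0.48). Its Ahrr thus stood slightly above the other vehicle mice and far below the high dose, unlike its Cyp1a1. Ahrr was above background in only 1 of the 5 vehicle lungs, so its vehicle values lie near background. Of the 12, mouse 2 was the highest vehicle lung for Ahrr, Nqo1, Ahr, Aldh3a1 and Ugt1a6a and not for the rest. Its Aldh3a1, at 1.53, lay above the other vehicle mice (0.20 to 0.99) and the high-dose mice (-0.01 to 1.08). Ahr and Ugt1a6a in mouse 2 also lay above every high-dose lung.

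Genes that are known from earlier results of these arrays to answer the dose in lung were set beside mouse 2. Phlda3, a p53 target that restrains Akt, was at 0.38 in mouse 2 and at 0.03 to 0.13 in the other vehicle mice, against 1.81 to 2.49 at the high dose. Gdf15, a stress-induced cytokine, was at -2.23 (others -2.78 to -2.04) against -0.50 to 1.45. The cell cycle inhibitor Cdkn1a was at -0.99 (others -1.50 to -0.21) against 1.18 to 2.11. Mmrn2, an endothelial matrix protein, was at 5.56 (others 5.55 to 5.86) against 7.58 to 8.90, and Gpihbp1, which anchors lipoprotein lipase on capillaries, at 6.15 (others 5.88 to 6.65) against 1.64 to 3.98. With Mdm2 (0.19) and Ccng1 (-0.09), all 7 genes lay outside the high-dose range in mouse 2. They were chosen for their dose response on these same arrays, with mouse 2 among the vehicle mice. That choice favours genes in which mouse 2 lies apart from the high dose, so its place here is no independent result. Within the high dose, Phlda3, Gdf15, Mdm2 and Ccng1 did not place mice 17, 19 and 20 above mice 16 and 18. Cdkn1a did (1.76 or more against 1.58 or less), as did Mmrn2 (8.56 or more against 8.46 or less), and Gpihbp1, which fell, was lowest in those 3 mice.

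**Figure D5:**
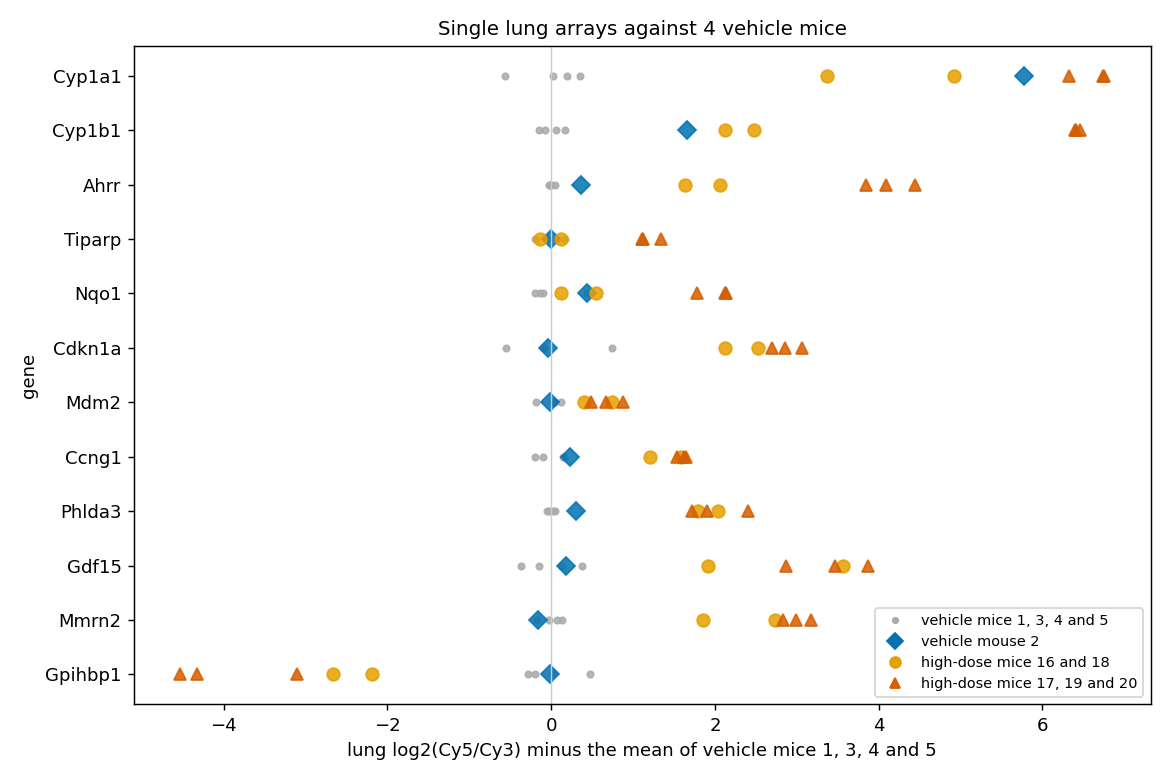
Lung log2(Cy5/Cy3) of single mice minus the mean of vehicle mice 1, 3, 4 and 5, for 2 Cyp1 genes, 3 AhR pathway genes and 7 dose-responsive genes (rows). The 7 were chosen for their dose response on these same arrays, mouse 2 included. Vehicle mouse 2 (diamonds) lies at 5.77 for Cyp1a1 and near 0 for the 7 dose-responsive genes, and high-dose mice 17, 19 and 20 (triangles) separate widely from 16 and 18 (circles) for Cyp1b1, Ahrr, Nqo1 and Tiparp.

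Cell type markers were examined beside the lung changes. Of 4 endothelial markers 2 rose at the high dose, Pecam1 by 0.74 ± 0.14 (SE, limma, adjusted p 0.00250) and Cdh5 by 0.82 ± 0.20 (adjusted p 0.0131). Kdr changed by 0.38 (adjusted p 0.433) and Tek by -0.30 (adjusted p 0.466), and neither passed. The mean log2 ratio of the 4 ranged from 5.20 to 5.71 in vehicle and from 5.55 to 6.09 at the high dose. None of 2 club cell or 4 fibroblast markers passed. Mouse 2 was neither the highest nor the lowest vehicle mouse with any of these lists, at 5.41 for the endothelial markers and 7.41 for those of club cells, known for their cytochromes P450. The part of cell composition in the Cyp1 changes was not tested.

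The genes most like each member were ranked by Pearson's r, as a description, since arrays share slides and animals share dose. Over the 19 lung arrays the 5 nearest to Cyp1b1 were Ahrr (r = 0.956), P2rx5 (0.944), Nqo1 (0.941), Srxn1 (0.938) and Phkb (0.935), and the 5 nearest to Cyp1a1 were Neurl3 (0.889), Sec23b (0.874), P2rx5 (0.864), Ogdh (0.847) and Limk1 (0.840), among 18357 probes. Cyp1a1 and Cyp1b1 themselves correlated with r = 0.823. These lung values of r span the separate clusters of the high-dose mice. Over all 59 arrays, after each tissue's mean was subtracted, Ahrr (0.890), Ackr3 (0.869), Dync1i1 (0.832), Jag2 (0.801) and Inf2 (0.800) were nearest to Cyp1b1, and Srxn1 (0.654), Ahrr (0.645), P2rx5 (0.610), Inf2 (0.607) and Dync1i1 (0.593) to Cyp1a1. For Cyp1a2 they were Cyp2d40, Kng1, Dmgdh, Fga and Rdh16f2, with r of 0.936 to 0.949, and there the arrays of the third liver slide lie apart together.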

How the data were processed

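RNA of 3 tissues from 20 mice was hybridized, as Cy5, with a Cy3-labelled universal mouse reference RNA to 59 Agilent 2-colour 60-mer arrays of 62976 spots, with no dye swap. The median intensity of each spot and its background flags were deposited as scanner output of Feature Extraction 10.7.3.1, per the file headers, without normalization used here. The authors also deposited a log2 ratio table made from LOWESS-normalized median signals; it served as an alternative and correlated with the values used here with r of 0.967 to 0.999 per array (column medians -0.041 to -0.0072, centring unstated). The study's own test was MAANOVA. Here, in R 4.3.3 with limma 3.58.1, control spots were left out, Cy5/Cy3 was loess-normalized within arrays without background subtraction, spots of a probe were averaged, and 55681 probes were fitted per tissue with a mean per dose, or with dose as a number for the trend. Differences of change used all arrays of both tissues, and vehicle levels the vehicle arrays of all tissues. A call needed at least a 1.5-fold change together with an adjusted p (Benjamini-Hochberg, all probes) of at most 0.05. Accessions gave 26413 probes and 20018 genes a symbol. A gene with several probes is given by its brightest, and the named genes are the members, the fixed lists and the 5 genes most correlated with each member. Some genes of the fixed lists are not reported here. Members, lists and tests were chosen with earlier results of these data known. Exact permutation tests compared 5 with 5 mice. Replicate numbers mark the same animal by the labels; deviations of same-numbered arrays from their group means correlated from -0.28 to 0.35 between tissues. The fits were tested on simulated data. No value column was left unmapped. The number of arrays limits the precision, and p-values rest on the spread between single animals. Tests between tissues did not pair the tissues of an animal, except where the animal is named as a block. Alternatives were median centring, normexp (offset 50), a filter on dim probes, another prior, slide and animal blocks, left-out mice and, chosen after seeing the data, the Cy5 channel alone.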

Additional observations from a re-analysis of the deposited data

Results flagged for a closer look

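The highest or lowest mouse stood far from the rest of its group in 6 of 24 groups of gene, tissue and dose. Chance gives about 1 in 20 of independent groups, but these share animals and slides, and mouse 2 was known from earlier results, so the count is a description. Vehicle mouse 2 was such a mouse for Cyp1a1 in lung (8.39) and in liver (2.84) and for Cyp1b1 in lung (0.21). Vehicle mouse 5, the only vehicle animal on the third liver slide, was so for Cyp1a2 in liver (2.81). Medium-dose mouse 12, whose array also held the strongest Alb and Apoa2 signals of the forestomach arrays, was so for Cyp1a2 in forestomach (2.06). High-dose mouse 16 was so for Cyp1b1 in liver (-2.27), a value close to that of most livers on the first and second slides. The high-dose change of Cyp1b1 differed between lung and forestomach by 3.79 in the test of that difference.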

How the results depend on the processing

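The high-dose rise of Cyp1b1 in lung and its difference from forestomach kept direction and call in every alternative run for them. Cyp1a1 in lung kept its direction throughout but missed the threshold with a trended and robust prior (4.47, adjusted p 0.0626), and ranged from 4.04 to 5.62 with single mice left out (call lost without mouse 1, 3, 17, 19 or 20). The trend called 1 to 2 members in lung with single mice left out (1 without mouse 20). With single mice left out, Cyp1a1 in forestomach ranged from -0.010 (without mouse 20) to 1.70. In liver, Cyp1b1 reversed with median centring (-0.064), and Cyp1a2 with the slide as a block (0.26), the Cy5 channel alone (0.98) and both (1.13). The lung minus liver difference of Cyp1b1, which rests on livers near background (no vehicle liver above it), was 3.34 and passed with median centring (4.57), the slide as a block (3.78) and Cy5 alone (3.94), and ranged from 2.87 to 4.08 without single mice (called without mouse 18). Its liver minus forestomach difference reversed in the same settings (-0.95, -0.23 and -0.22). For vehicle levels, median centring ended the calls of Cyp1a1 lung minus liver (2.19), Cyp1b1 lung minus forestomach (-1.05), and Cyp1a2 lung minus liver (-2.45) and liver minus forestomach (2.27). The other prior ended those of Cyp1a1 lung minus liver (3.07) and Cyp1b1 lung minus forestomach (-1.12). The replicate block, which pairs tissues of an animal, made Cyp1a1 lung minus forestomach a call (1.88, adjusted p 0.0103) and changed no other call. Without single mice, vehicle levels ranged from 2.45 to 3.51 for Cyp1a1 lung minus liver (lost without 1 or 4), 1.35 to 2.12 for lung minus forestomach (called without 2) and -1.43 to -1.03 for liver minus forestomach (called without 2). For Cyp1b1 they ranged from 0.27 to 1.13 for lung minus liver (called without 5), where no vehicle liver was above background. For its lung minus forestomach difference they ranged from -1.29 to -1.01 (lost without 1, 3 or 4). Of the relations between animals, Cyp1a1 with Cyp1b1 no longer passed without the 2 farthest mice in lung (0.58) or forestomach (0.26), and without mouse 2 neither did these (0.74 and 0.51) nor Cyp1b1 lung with forestomach (0.54). Without the 2 mice of largest deviation, a setting chosen after seeing the data, these 3 relations did not pass either (0.58, 0.67 and 0.55). The cause was not tested for any of these. Each gene has 1 probe, so averaging probes gave the same values. Signals near background limit Cyp1a1 and Cyp1b1 in liver and Cyp1a2 in lung and forestomach.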
